A study of Rattus norvegicus with 15 samples.

Results

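Gene expression in the posterior cerebral artery of rats 24 h after 3-vessel occlusion (3VO) was compared with that in arteries of intact animals. The samples were chosen by their source labels, which gave 3 arrays for 3VO at 24 h and 3 for intact controls, 6 of the 15 arrays of the series. The 3 arrays of sham surgery at 24 h were set beside them, since a comparison with intact animals joins the effects of surgery and of occlusion. All rats were Sprague Dawley animals, 7 weeks old and weighing 300 to 350 g, and each array held RNA pooled from the arteries of 8 rats.

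In the 3VO rats both vertebral arteries were electrocoagulated and the left common carotid artery was ligated under isoflurane, with buprenorphine as the analgesic, and the artery was taken 24 h later. Sham rats received the same anaesthetic and analgesic and had the 3 vessels laid open but left untouched, and were sampled at 24 h as well. For 3VO replicate 1 the labels give no repeated analgesia after surgery, which they do give for the other 3VO and the sham arrays. For intact rats, taken at 0 h, the labels name neither surgery nor anaesthetic nor analgesic. In all 3 groups the vessels were filled with latex under maximal dilation by papaverine, and the artery was dissected from the brain. Anaesthesia, analgesia, wounding and occlusion therefore cannot be told apart in the comparison of 3VO with intact arteries. The labels call the artery ipsilateral in every group.

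The posterior cerebral artery joins the basilar circulation to the anterior circulation through the circle of Willis, and it can carry collateral flow when supply arteries are closed. Collateral arteries grow by arteriogenesis, in which raised flow and shear stress activate the endothelium, monocytes and macrophages gather around the vessel, matrix is remodelled and smooth muscle cells divide. Surgery on its own starts an acute phase response, in which interleukin-6 and glucocorticoids raise the synthesis of plasma proteins such as alpha-2-macroglobulin.

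Signals were on a linear intensity scale with a trimmed mean of 5000 on every array. The medians lay between 2712 and 2819 on the 3VO arrays, between 2559 and 2798 on the sham arrays and between 2575 and 2900 on the intact arrays. Smooth muscle genes marked the tissue as an artery on every array. Tagln, an actin-binding protein of smooth muscle, had signals of 84004, 107787 and 84749 on the 3VO arrays, 127725, 133306 and 148732 on the sham arrays and 75165, 94553 and 134882 on the intact arrays. Genes of neurons and glia were bright on every array as well. Snap25, a synaptic membrane protein of neurons, had signals of 50979, 25802 and 69098 on the 3VO arrays, 17534, 26282 and 16617 on the sham arrays and 124806, 69581 and 37834 on the intact arrays.

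The 3 intact arrays were unlike each other. The summed signal of 49 neuron markers was 306904 to 533410 on the 3VO arrays and 209121 to 359397 on the sham arrays, against 968291 and 703943 on intact replicates 1 and 2 and 365630 on intact replicate 3. The 18 markers of choroid plexus epithelium, the tissue that makes cerebrospinal fluid, summed to 211503 to 258824 on the 3VO arrays and 233430 to 378914 on the sham arrays, against 190565, 840482 and 500774 on intact replicates 1, 2 and 3. Ttr, the transthyretin of that epithelium, had signals of 9996 to 51108 on the 3VO arrays, against 22892, 282179 and 189034 on intact replicates 1, 2 and 3. Otx2, a transcription factor of choroid plexus, was at 19.0 to 51.0 on the 3VO arrays and at 535 to 8559 on the intact arrays. For immune and vessel wall genes intact replicate 3 stood apart from the other intact arrays and lay nearer to the operated groups. Results are therefore given with and without it. The intact arrays also carry the last array numbers, 13 to 15, so array order and group cannot be told apart here.

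Few probe sets separated the groups at this number of arrays, and nearly all of them were higher after 3VO. In limma, 28 of 15737 probe sets were higher after 3VO than in intact arteries at a Benjamini-Hochberg adjusted p under 0.05, which is 0.178% of those tested, and 1 was lower (0.00635%), 29 in all (0.184%). An unadjusted p under 0.05 was found for 1567 probe sets. The p-values rest on a single estimate of spread per probe set, shared by the arrays of all 5 groups of the series. Where the intact arrays varied more than the others, that estimate can understate the uncertainty. The labels do not say whether the arrays of a group held RNA of separate pools of rats, so the spread may be technical in part. The 28 higher probe sets stood for 23 single genes (Cp with 2 probe sets), 2 groups of related genes and 2 probe sets with no gene named here, 1388202_at and 1369653_at. The 3VO arrays did not overlap with the intact arrays for any of the 29. With 10360 genes each taken at their brightest probe set, 22 were past the threshold (0.212%), 5280 had a positive and 5078 a negative log2 difference, and the median log2 difference was 0.007. At that share most lists of the sizes used here would hold no call, so a list without one is no result in itself.

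The count depended on single arrays. Without intact replicate 3 it was 227, with 183 higher and 44 lower and all 29 among them. In 222 of the 227, intact replicate 3 lay beyond both other intact arrays in the direction of 3VO. Leaving it out therefore widens those differences by construction. The genes and lists called without it were tabulated after the data were seen. The count was 15 without intact replicate 1 and 14 without intact replicate 2. It was 15, 7 and 17 without 3VO replicates 1, 2 and 3. It was 19 without sham replicate 3, which enters only through the shared estimate of spread, and 3 in a fit of the 6 arrays alone. The 7 probe sets kept without 3VO replicate 2 were those of Timp1, Pla1a, Cp (1368420_at), Lcn2, Fcgr2b, Gpnmb and the kininogens, and each of these 7 passed whichever 1 of the 9 arrays of 3VO, sham and intact was left out. The other 22 did not pass without 3VO replicate 2. Of the 29, 12 and 15 still passed without 3VO replicates 1 and 3, 10 and 11 without intact replicates 1 and 2, and 20, 22 and 19 without sham replicates 1, 2 and 3.

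**Figure D1:**
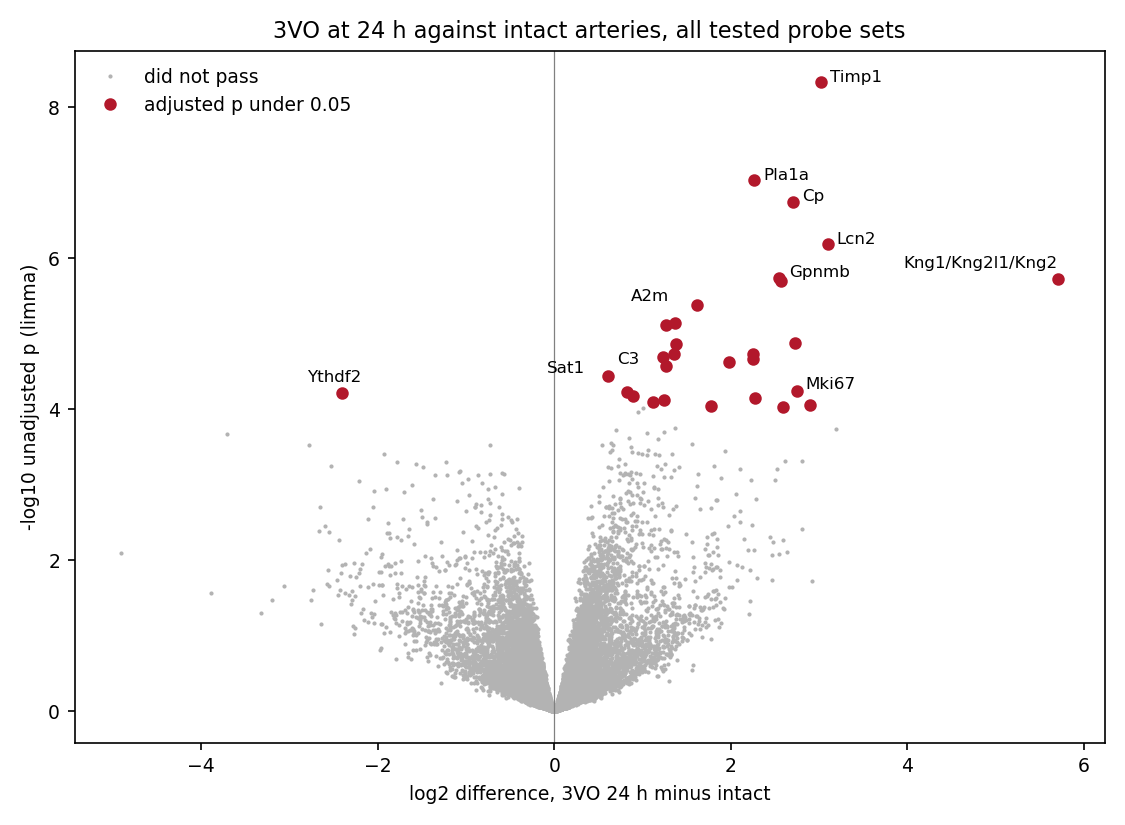
Each point is a probe set, with its log2 difference, 3VO at 24 h minus intact, on the x axis and the -log10 unadjusted p of limma on the y axis, and red points had an adjusted p under 0.05. Of the 29 red points, 28 lie to the right of 0, and the kininogen probe set lies farthest to the right.

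The 2 protease inhibitors that rose were among the clearest changes. Timp1, the secreted inhibitor of matrix metalloproteinases, had signals of 106956, 136845 and 72983 on the 3VO arrays, against 13245, 8328 and 18022 on the intact arrays. Every 3VO array was far above every intact array, and the 3 sham arrays (17936, 18183 and 16189) lay within or close to the intact range. The difference was 8.12-fold (log2 difference 3.02 ± 0.25 SE, adjusted p = 7.29e-05 in limma). A2m, alpha-2-macroglobulin, which traps proteases of many classes, had signals of 26158, 30744 and 29094 on the 3VO arrays, against 8778, 8933 and 10214 on the intact arrays. The arrays of each group lay close together, and the fold was 3.08 (adjusted p = 0.00815). The sham arrays (9966, 7822 and 9021) overlapped with the intact arrays. The A2m call was lost without 3VO replicate 2 (adjusted p = 0.0743). Of 23 protease inhibitor genes measured, 18 had a positive difference and 2 passed (0.212% of all genes did). On every 3VO array 8 were higher than on any intact array (7.63% over all genes). Serping1, the inhibitor of complement C1 and kallikrein, averaged 2.26-fold and did not pass (adjusted p = 0.1), and the median of the list was 0.30 on the log2 scale.

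No gene in the list of extracellular proteases passed (0.212% of all genes did). Of 26 matrix metalloproteinases and other extracellular proteases, 18 had a positive difference, 5 were higher on every 3VO array than on any intact array, beside 7.63% of all genes (790 of 10360), and the median was 0.16. Adamts1, a protease that cleaves proteoglycans, had signals of 8392, 9843 and 7294 after 3VO, against 2594, 5629 and 2635 in intact arteries (log2 difference 1.32 ± 0.31 SE, adjusted p = 0.125). Mmp9, a gelatinase, had a mean signal of 532 after 3VO and 489 in intact arteries, with overlapping arrays (adjusted p = 0.972). Mmp2, the other gelatinase, had log2 differences of -0.38 and 0.09 on its 2 probe sets, with overlapping arrays (adjusted p = 0.763 and 0.957).

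Genes of the acute phase response were among those that rose. Lcn2, lipocalin 2, which binds iron-carrying siderophores, had signals of 14471, 22088 and 7515 on the 3VO arrays, against 1660, 1397 and 1597 on the intact arrays. The lowest 3VO array was several times the highest intact one, and the sham arrays (1954, 2573 and 1996) lay just above intact. The difference was 8.58-fold (adjusted p = 0.00257 in limma). Cp, ceruloplasmin, the copper-carrying ferroxidase, had 3 probe sets that all pointed the same way. The one with the largest difference had signals of 48736, 47469 and 42220 after 3VO, against 6527, 5858 and 9158 in intact arteries, a 6.52-fold difference (adjusted p = 0.000949). The other Cp probe sets had log2 differences of 1.78 (adjusted p = 0.0499) and 1.25 (adjusted p = 0.0895). The first of these calls was lost without any 1 of the 3VO or sham arrays, or without intact replicate 1 or 2 (adjusted p = 0.0608 to 0.233).

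Lbp, the lipopolysaccharide-binding protein, had signals of 15621, 21490 and 12367 after 3VO, against 3132, 2362 and 5142 in intact arteries. Its groups did not overlap, and its sham arrays (8771, 5151 and 5927) lay between them. The fold was 4.76 (adjusted p = 0.0214), and the call was lost without 3VO replicate 1 (adjusted p = 0.08), 3VO replicate 2 (0.141), intact replicate 1 (0.0887) or intact replicate 2 (0.119). Lbp is also a marker in the choroid plexus list, whose other 17 members had no call, and 16 of the 18 had a negative difference. The probe set shared by the kininogen genes Kng1, Kng2l1 and Kng2 had signals of 25861, 22275 and 9462 after 3VO, against 306, 112 and 912 in intact arteries. Kininogens are precursors of kinins, and T-kininogen is a major acute phase protein of the rat. The sham arrays had 73.0, 236 and 559, so the probe set was bright on the 3VO arrays alone. The fold was 52.3 (log2 difference 5.71 ± 0.76 SE, adjusted p = 0.00446), against intact signals near the bottom of the scale. The 3 probe sets named for Kng2l1 alone did not pass, with log2 differences of 0.90, 0.43 and -1.28, so the gene behind the shared probe set is not settled. Neither kinin receptor passed, with log2 differences of 0.55 for Bdkrb2 and -0.64 for Bdkrb1.

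Of 22 acute phase genes measured, 4 passed, all higher (0.212% of all genes passed), and 17 had a positive difference. On every 3VO array 7 were higher than on any intact array, beside 7.63% of all genes. The list median was 0.32, against 0.23 for sham minus intact. Hamp, hepcidin, and fibronectin (Fn1) did not pass, with log2 differences of -0.46 and 0.37. Mt2A, a metallothionein, had signals of 42541, 33934 and 33342 after 3VO, against 21620, 18045 and 26501 in intact arteries, and did not pass (adjusted p = 0.379).

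**Figure D2:**
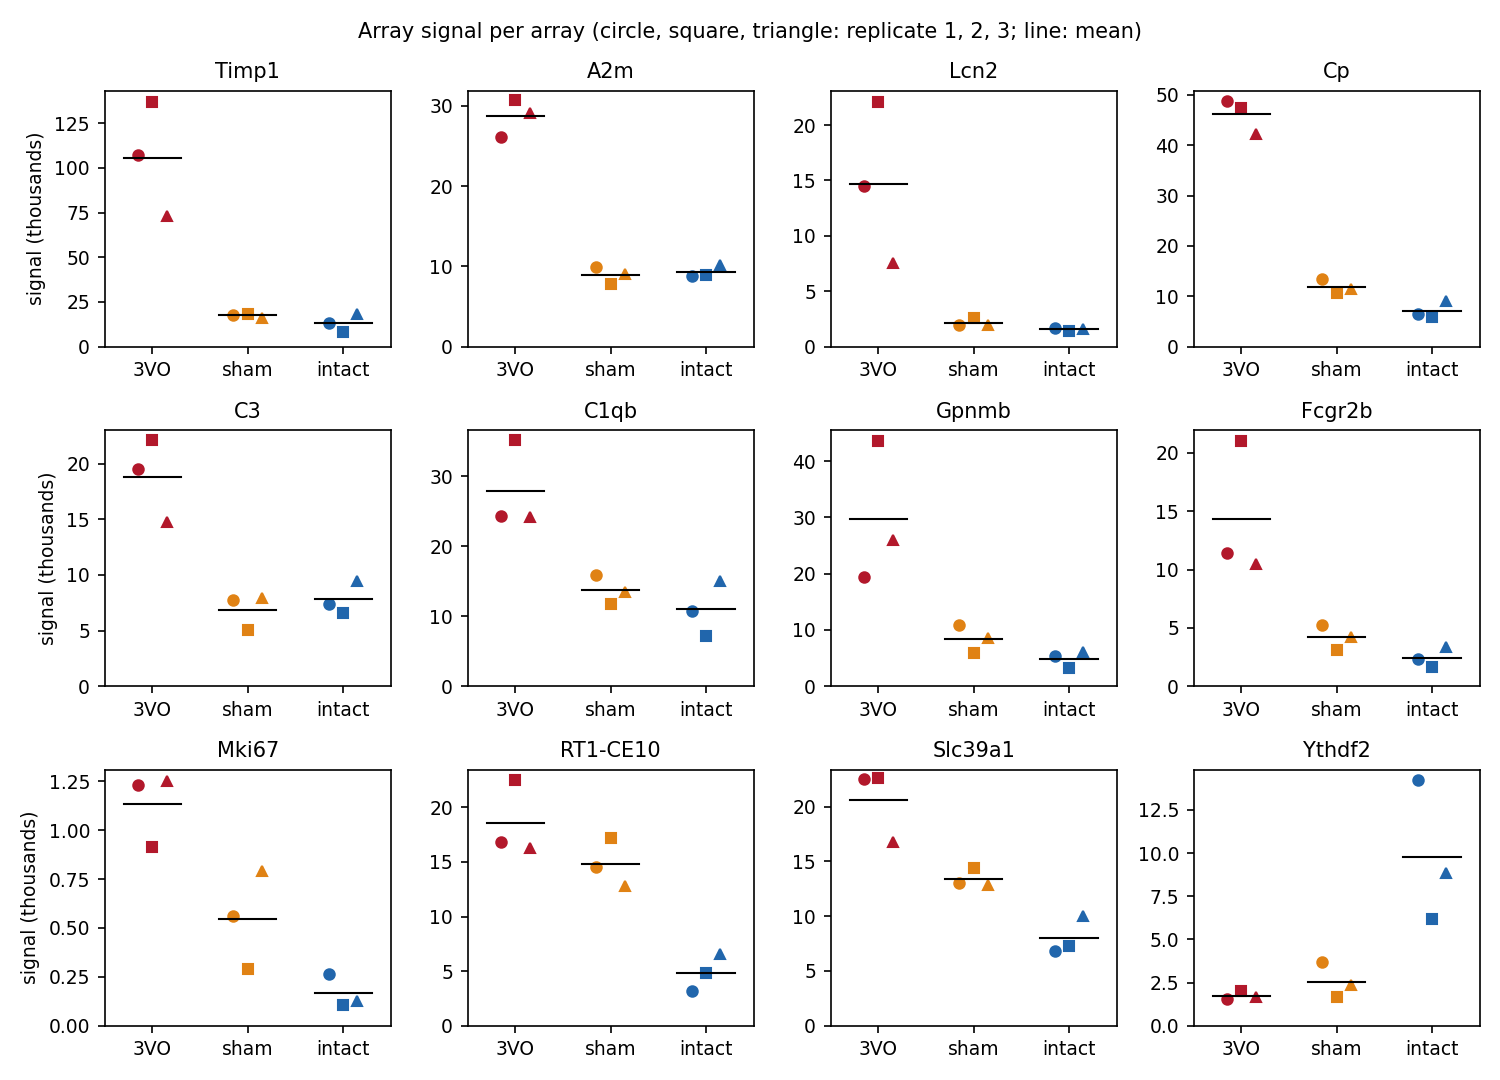
Array signal divided by 1000, on linear axes from 0, for 12 genes on the 3 arrays each of 3VO at 24 h, sham at 24 h and intact arteries, with symbols for replicates 1, 2 and 3 and a line at the mean. For Timp1, A2m, Lcn2 and C3 the sham arrays sit with or near the intact arrays, whereas for RT1-CE10 they sit with the 3VO arrays, and Ythdf2 is high only in intact arteries.

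Complement genes made up 4 of the 29 calls, and a further call was shared by complement genes. C1qb and C1qc encode chains of C1q, the recognition protein of the classical pathway, and C1s encodes the protease bound to it. C1qb had signals of 24345, 35172 and 24138 after 3VO, against 10668, 7229 and 15040 in intact arteries. The groups did not overlap, the fold was 2.61 (adjusted p = 0.0176 in limma), and the sham arrays (15806, 11762 and 13470) reached only just above the highest intact array. C1qc rose 2.36-fold (adjusted p = 0.0475) and C1s 2.35-fold (adjusted p = 0.0212). C3, the protein on which the complement pathways converge, had signals of 19484, 22155 and 14771 after 3VO, against 7402, 6612 and 9404 in intact arteries. The sham arrays (7702, 5036 and 7914) were level with the intact arrays, and the fold of 3VO over intact was 2.40 (adjusted p = 0.0231). The probe set shared by Cfb and C2, the catalytic subunits of the complement convertases, had signals of 46390, 79152 and 20996 after 3VO, against 8116, 5158 and 16213 in intact arteries, a fold of 4.84 (adjusted p = 0.0467). That call held in 8 of 20 alternative settings (adjusted p up to 0.433).

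Of 13 complement genes measured, 4 passed (0.212% of all genes did) and 11 had a positive difference. On every 3VO array 8 were higher than on any intact array (7.63% over all genes). The median of 1.06 on the log2 scale was the highest of the 23 gene lists. C1qa, the remaining C1q chain, and C1r, the protease that activates C1s, had log2 differences of 1.06 and 1.13 and did not pass (adjusted p = 0.108 and 0.146). The calls of C1qb, C1qc, C1s and C3 were each lost without 3VO replicate 2 (adjusted p = 0.141 to 0.259) and without intact replicate 1 (adjusted p = 0.0628 to 0.165). C1s, C1qc and C3 were also lost without 3VO replicate 1 or intact replicate 2 (adjusted p = 0.0632 to 0.185), and C1s and C1qc without 3VO replicate 3 (0.053 and 0.0874). C1qc was lost as well without sham replicate 1 or 3 (0.055 and 0.0784). Without intact replicate 3, 7 of the 13 passed, Serping1, C1qa and C1r in addition, beside 1.35% of all genes called higher in that fit (140 of 10357). That array lay toward the 3VO arrays for each of the 7. Leaving it out widens these differences by construction, so the added calls are no separate support for the list.

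The promoters of the genes that rose were searched for the sequences bound by STAT, NF-kappaB and AP-1 factors, which carry interleukin-6, tumour necrosis factor and stress signals. RefSeq windows on the GRCr8 build, 250 bases before the annotated start, were found for 15 of the 23 genes. Both strands were searched, and none of the 3 patterns contains another. The STAT letters TTCNNNGAA were in 1 of the 15 windows (6.67%, Sat1), beside 7.67% of 33469 windows in all. The AP-1 letters TGANTCA were in 1 (6.67%, Gpnmb), beside 6.34%. The NF-kappaB consensus was in 4 (26.7%), those of Lcn2, C1qb, Slc39a1 and RT1-CE10, beside 6.33%. A match is a match of letters and shows no binding. The windows of Lcn2 (chr3:36081781-36082030, minus strand), C1qb (chr5:154407828-154408077, minus strand) and Slc39a1 (chr2:178000869-178001118, plus strand) are shown since they hold a match and stand for an acute phase gene, a complement gene and a transporter. They run 5′ to 3′ along the gene with the match in capitals, which begins 242 bases before the start in Lcn2, 245 in C1qb and 14 in Slc39a1.
Lcn2: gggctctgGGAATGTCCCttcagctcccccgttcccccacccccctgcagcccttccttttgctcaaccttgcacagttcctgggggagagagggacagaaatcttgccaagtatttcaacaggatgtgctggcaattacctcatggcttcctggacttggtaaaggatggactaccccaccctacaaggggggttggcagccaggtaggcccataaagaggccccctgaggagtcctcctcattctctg
C1qb: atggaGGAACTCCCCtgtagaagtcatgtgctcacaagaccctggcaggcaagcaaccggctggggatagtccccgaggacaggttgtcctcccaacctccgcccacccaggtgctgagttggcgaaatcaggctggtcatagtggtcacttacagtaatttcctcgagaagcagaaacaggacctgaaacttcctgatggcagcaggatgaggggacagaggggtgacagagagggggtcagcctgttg
Slc39a1: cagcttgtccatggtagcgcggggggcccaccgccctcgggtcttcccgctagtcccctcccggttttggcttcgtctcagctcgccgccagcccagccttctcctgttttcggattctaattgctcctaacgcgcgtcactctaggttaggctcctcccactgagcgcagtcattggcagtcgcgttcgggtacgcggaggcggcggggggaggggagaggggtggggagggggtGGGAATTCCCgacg

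Markers of macrophages and microglia all had a positive difference, and 5 of them passed. Fcgr2b, the inhibitory Fc gamma receptor, had signals of 11428, 20999 and 10459 after 3VO, against 2304, 1608 and 3369 in intact arteries. Every 3VO array was above every sham array (5206, 3114 and 4206), and 2 of the sham arrays were above every intact one. The fold over intact was 5.82 (adjusted p = 0.00446 in limma). Gpnmb, a transmembrane glycoprotein of phagocytes, had signals of 19437, 43503 and 26045 after 3VO, against 5418, 3176 and 6123 in intact arteries, a fold of 5.92 (adjusted p = 0.00446). Lilrb4, a leukocyte receptor that restrains myeloid activation, had signals of 3037, 5930 and 3510 after 3VO, against 254, 569 and 962 in intact arteries. It was among the last to pass (fold 7.46, adjusted p = 0.0499), its sham arrays (192, 510 and 336) lay at the intact level, and leaving out any 1 of the 3VO or sham arrays, or intact replicate 1 or 2, ended the call (adjusted p = 0.055 to 0.301).

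All 25 markers measured had a positive difference, 14 of them were higher on every 3VO array than on any intact array (7.63% of all genes were), and 5 passed (0.212% of all genes did), among them C1qb and C1qc. The median difference was 0.80, and it was 0.45 for sham minus intact. The summed signal of the list was 667072, 844116 and 668937 after 3VO, 653479, 531748 and 608589 after sham surgery and 418036, 406198 and 600267 in intact arteries. Intact replicate 3 thus lay within the sham range and below each 3VO array. Without it 14 of the 25 passed, among them Lgals3, Csf1r, Cd68, Tyrobp and Lyz2, beside 1.35% of all genes called higher in that fit. That array was singled out because it lay toward the operated groups for such genes. Leaving it out widens their differences by construction, so the added calls are no separate support for the list. Cd68, a lysosomal protein of macrophages, had signals of 6637, 7419 and 6369 after 3VO, against 3435, 3496 and 6357 in intact arteries. Itgam, an integrin chain of myeloid cells, had 1500, 3344 and 2482 after 3VO, against 244, 1158 and 205 in intact arteries, and did not pass (adjusted p = 0.122). In pooled tissue, more cells of a type and more RNA in each cell cannot be told apart.

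Markers of other blood cells gave fewer calls. Of 10 neutrophil genes measured, 9 had a positive difference with a median of 0.93. On every 3VO array 3 were higher than on any intact array (7.63% over all genes). The single call (0.212% over all genes) was Lcn2, which is also in the acute phase list. Il1r2 and Il1b had log2 differences of 1.75 and 0.70 and did not pass (adjusted p = 0.319 and 0.415 in limma). Their groups barely parted. The lowest 3VO and highest intact signals were 698 and 614 for Il1r2 and 2095.6 and 2093.5 for Il1b. The sham mean of Il1r2, 851, was above its 3VO mean, 783. S100a8 and S100a9, the calprotectin subunits of neutrophils, had log2 differences of 0.17 and 0.75 with overlapping arrays, and Mmp8 had one of -0.01. S100a9 had signals of 6151, 9819 and 10960 after 3VO, against 4612, 3832 and 7860 in intact arteries. None of 17 lymphocyte markers passed, 13 had a positive difference, and the median was 0.17. On every 3VO array 2 were higher and 2 lower than on any intact array (7.63% and 6.46% of all genes). Cd4 was among the higher, with signals of 3943, 5300 and 3983 after 3VO, against 3253, 2618 and 3283 in intact arteries. Cd8a, with low signals, was between 92.0 and 104 on the 3VO arrays and between 320 and 954 on the intact arrays. The 8 erythroid genes had a median of 0.16, and Hbb, a haemoglobin chain, had signals of 223106 to 238671 after 3VO and 185418 to 293902 in intact arteries. The 6 platelet genes had a median of 0.33 and no call.

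**Figure D3:**
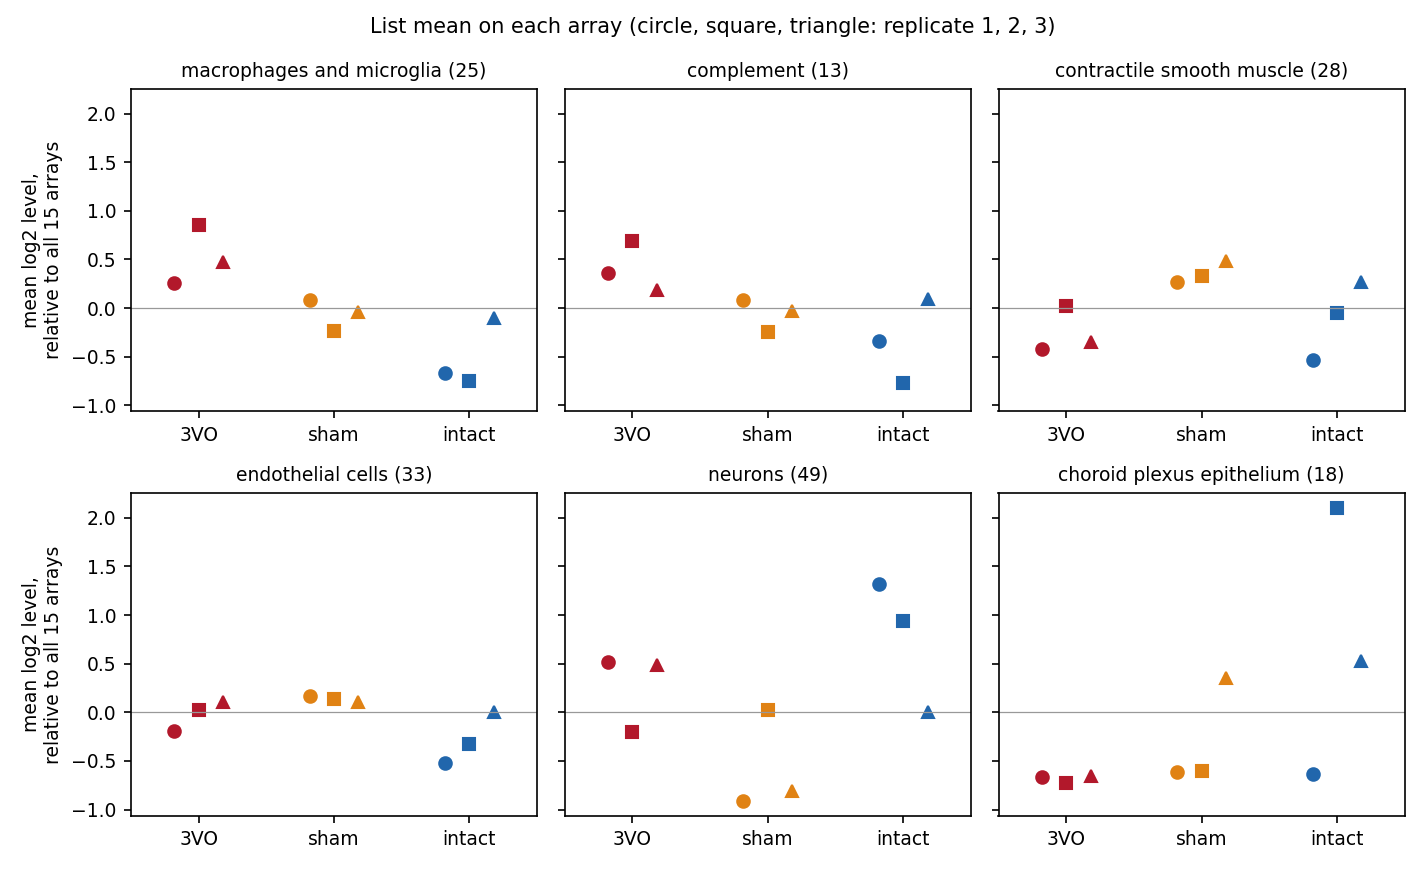
Mean log2 level of 6 gene lists on each array, relative to the mean of all 15 arrays, with the number of genes in brackets and symbols for replicates 1, 2 and 3. Macrophage and complement levels are highest on the 3VO arrays, intact replicate 3 lies above the other intact arrays in 4 lists, and neuron and choroid plexus levels differ most among the intact arrays.

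Cytokine, chemokine and adhesion genes gave no call (0.212% of all genes passed). Of 36 measured, 27 had a positive difference, 11 were higher on every 3VO array than on any intact array (7.63% over all genes), and the median was 0.37. Ccl2, the chemokine that draws monocytes, had signals of 2208, 1837 and 1525 after 3VO, against 496, 286 and 502 in intact arteries. The groups were well apart, but the difference of 2.10 on the log2 scale did not pass (adjusted p = 0.219 in limma). Cxcl1, a neutrophil chemokine, had low signals of 401, 595 and 600 after 3VO, against 49.0 to 83.0 in intact arteries (adjusted p = 0.242). Tnf, tumour necrosis factor, had 381, 38.0 and 62.0 after 3VO and a mean of 794 after sham surgery, against 460, 397 and 701 in intact arteries, and the difference from intact did not pass (adjusted p = 0.312). Il6 was low on every array, at 224, 482 and 361 after 3VO, against 184, 107 and 70.0 in intact arteries. The endothelial adhesion molecules Icam1, Vcam1 and Sele did not pass. Vcam1 had signals of 14673, 15686 and 17823 after 3VO, against 11123, 12133 and 14009 in intact arteries, and Icam1 overlapped between the groups.

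Of 17 genes of interleukin-6 and STAT3 signalling, 13 had a positive difference with a median of 0.56. None passed (0.212% of all genes did). Stat3, the transcription factor of the pathway, had signals of 9955, 10840 and 6425 after 3VO, against 5438, 6027 and 3544 in intact arteries (log2 difference 0.86 ± 0.23 SE, adjusted p = 0.179), and a second probe set overlapped. The sham mean of the first of 9365 was level with that after 3VO, 9073. Socs3, the feedback inhibitor, had signals of 2296, 2072 and 1640 after 3VO, against 1454, 1325 and 1226 in intact arteries (adjusted p = 0.417).

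Among 26 genes known to be induced by glucocorticoids, 2 passed (0.212% of all genes did). A positive difference was found for 20, with a median of 0.38, against 0.20 for sham minus intact. On every 3VO array 7 were higher than on any intact array (7.63% over all genes). Pla1a, a secreted phospholipase specific for phosphatidylserine, had signals of 17575, 23144 and 16042 after 3VO, against 3795, 2999 and 5092 in intact arteries. Every 3VO array was above every sham array (6666, 4718 and 4995) and every intact array, the fold was 4.81 (log2 difference 2.27 ± 0.24 SE, adjusted p = 0.000712 in limma), and Pla1a passed in all 21 alternative settings. The other call was Lcn2. Fkbp5, a co-chaperone of the glucocorticoid receptor and a common marker of its activity, had signals of 13528, 10953 and 8051 after 3VO, against 6380, 5268 and 8197 in intact arteries. It overlapped and did not pass (adjusted p = 0.269). Per1, a clock gene that glucocorticoids also induce, had signals of 3322, 3507 and 3763 after 3VO, against 2934, 3207 and 2575 in intact arteries, a log2 difference of 0.28 that did not pass (adjusted p = 0.92).

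Interferon-induced and antigen presentation genes all leaned the same way. All 32 measured had a positive difference with a median of 0.43, 10 were higher on every 3VO array than on any intact array (7.63% over all genes), and 1 passed (0.212% over all genes). Ifitm1, an interferon-induced membrane protein, had signals of 43262, 58864 and 58706 after 3VO, against 18823, 15536 and 30102 in intact arteries. The groups did not overlap, the fold was 2.57 (adjusted p = 0.021 in limma), and the call was lost without 3VO replicate 2 (0.141), 3VO replicate 3 (0.0874), intact replicate 1 (0.0887) or intact replicate 2 (0.0951). The list median was larger after sham surgery, at 0.57. RT1-CE10, a class I major histocompatibility gene of the rat outside the list, had signals of 16822, 22500 and 16321 after 3VO, 14521, 17199 and 12778 after sham surgery and 3175, 4854 and 6528 in intact arteries. It was thus high in both operated groups (3VO over intact 3.93-fold, adjusted p = 0.0215), and probe sets of the near-identical class I genes may share signal. The call was lost without any single 3VO array (adjusted p = 0.0633 to 0.141) or without intact replicate 1 or 2 (0.0974 and 0.0879). RT1-Bb and RT1-Da, class II chains, had log2 differences of 1.84 and 0.92 and passed only without intact replicate 3. In that fit 4 of the 32 passed, beside 1.35% of all genes called higher, and leaving out that array widens these differences by construction.

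Among cell cycle genes there was a single call (0.212% of all genes passed). Mki67, the nuclear protein of dividing cells, had signals of 1230, 914 and 1253 after 3VO, 559, 290 and 791 after sham surgery and 264, 105 and 127 in intact arteries. The 3 groups did not overlap, and the fold of 3VO over intact was 6.72 (adjusted p = 0.0433 in limma). The signals were low, and leaving out any 3VO array, sham replicate 1 or intact replicate 2 ended the call (adjusted p = 0.0608 to 0.178). Of 42 cell cycle genes, 38 had a positive difference, 15 were higher on every 3VO array than on any intact array, beside 7.63% of all genes, and the median was 0.43. Kif20a, a mitotic kinesin, had 715, 686 and 505 after 3VO, against 94.0, 135 and 124 in intact arteries (adjusted p = 0.168). Top2a, the topoisomerase of dividing cells, had 2309, 1525 and 1281 after 3VO, against 753, 104 and 1085 in intact arteries (adjusted p = 0.419).

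A single extracellular matrix gene passed (0.212% of all genes did). Of 53 measured, 41 had a positive difference after 3VO with a median of 0.33, and the median for sham minus intact was 0.53. On every 3VO array 10 were higher and 1 was lower than on any intact array (7.63% and 6.46% of all genes). Spp1, osteopontin, an adhesive matrix protein made by macrophages and smooth muscle cells, was the single call. It had signals of 26308, 36669 and 12140 after 3VO, against 4751, 3259 and 6992 in intact arteries. The sham arrays lay at 7207, 6785 and 6788, at or near the top of the intact range. The fold was 4.75 (adjusted p = 0.021 in limma), and the call was lost without 3VO replicate 1 (0.0943), 3VO replicate 2 (0.141), intact replicate 1 (0.0754) or intact replicate 2 (0.107). Col3a1, the fibrillar collagen III chain, had signals of 75957, 77604 and 69482 after 3VO and a mean of 76308 after sham surgery, against 38873, 40710 and 57377 in intact arteries. Its difference of 0.72 did not pass (adjusted p = 0.122). Without intact replicate 3, 6 of the 53 passed, beside 1.35% of all genes called higher in that fit. They were Spp1, Col3a1, Fbln1, Matn2, Col6a1 and Col6a2. That array lay toward the 3VO arrays for each of them, so leaving it out widens these differences by construction.

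No contractile smooth muscle gene passed (0.212% of all genes did). Of 28 measured, 18 had a negative difference, with a median of -0.12, and 1 was higher and 2 were lower on every 3VO array than on any intact array (7.63% and 6.46% of all genes). The median was 0.44 for sham minus intact and -0.58 for 3VO minus sham. Acta2, smooth muscle actin, had signals of 32848, 58224 and 26698 after 3VO, 63346, 82069 and 84639 after sham surgery and 31346, 60380 and 52631 in intact arteries. Myh11, smooth muscle myosin, followed the same order of groups, with 60263, 65237 and 47554 after 3VO, 82434, 86805 and 108337 after sham surgery and 43606, 90622 and 88815 in intact arteries. For both genes the sham arrays were above the 3VO arrays, and the intact arrays spread over most of the range. Synpo2l, an actin-binding protein of striated and smooth muscle, had signals of 1689, 2413 and 1672 after 3VO, against 3061, 6419 and 4503 in intact arteries, with no overlap (adjusted p = 0.122). The summed signal of the list varied from 708899 to 1221484 among the intact arrays alone. The list median had the opposite sign, 0.08, without intact replicate 3. Tpm3, a tropomyosin of the cytoskeleton, had signals of 10197, 13265 and 11253 after 3VO, 9725, 8872 and 9090 after sham surgery and 4871, 3507 and 6412 in intact arteries. It rose 2.40-fold after 3VO over intact (adjusted p = 0.0119), and both operated groups were above intact.

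Of 42 genes of ion channels and vascular tone, none passed (0.212% of all genes did), and the median was 0.06. Itpr1, the inositol trisphosphate receptor that releases calcium, had signals of 11933, 16553 and 16544 after 3VO, against 51977, 27151 and 21572 in intact arteries (log2 difference -1.07 ± 0.25 SE, adjusted p = 0.122). Atp2a2, the calcium pump of the sarcoplasmic reticulum, had 4 probe sets with log2 differences of -0.73, -0.40, -1.06 and 0.22, and none passed. Kcna5, a voltage-gated potassium channel, had signals of 1699, 1260 and 1090 after 3VO, against 2101, 2470 and 2268 in intact arteries (adjusted p = 0.219). Rgs2, which damps signalling by vasoconstrictors, had 12668, 13384 and 10850 after 3VO, against 6874, 7446 and 9090 in intact arteries (adjusted p = 0.108). Itpr1 is also expressed in neurons. The neuron marker means on intact replicates 1, 2 and 3 were 1.324, 0.935 and 0 relative to all 15 arrays, the same order as the Itpr1 signals. With the mean of the neuron markers as a covariate the log2 difference of Itpr1 was -0.97 (adjusted p = 0.211 in limma). Whether neuronal RNA accounts for the difference was not tested.

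Among 33 endothelial genes, 26 had a positive difference with a median of 0.30, against 0.45 for sham minus intact. None of them passed (0.212% of all genes did). Nos3, endothelial nitric oxide synthase, had signals of 1776, 3769 and 3928 after 3VO, 4819, 5327 and 4992 after sham surgery and 1041, 1549 and 2612 in intact arteries. Its 3VO and intact arrays overlapped, and the sham arrays were the highest. Pecam1, an adhesion molecule of endothelial junctions, had signals of 2278, 4457 and 3896 after 3VO, against 1055, 1759 and 1506 in intact arteries, and did not pass (adjusted p = 0.304). Klf2, a transcription factor induced by laminar shear stress, had 4 probe sets with log2 differences between 0.67 and 1.08, and none passed (adjusted p = 0.197 to 0.324). Klf4, a related factor, overlapped (log2 difference 0.54, adjusted p = 0.415). Of 40 flow-responsive and immediate early genes, 26 had a positive difference with a median of 0.24. Egr1 overlapped between the groups, at 8207, 7368 and 9767 after 3VO and 7597, 17893 and 9181 in intact arteries. Fos had log2 differences of -1.06 and -0.12 on its 2 probe sets, and neither passed (adjusted p = 0.499 and 0.971). Jund, a subunit of AP-1, had signals of 531, 114 and 278 after 3VO, against 1833, 1388 and 2571 in intact arteries on one probe set (adjusted p = 0.104), whereas the other overlapped with a log2 difference of -0.40.

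The remaining gene lists had no call (0.212% of all genes passed). Growth factors and their receptors (45 genes) had a median of 0.13, cathepsins and lysosomal genes (17 genes) 0.41, antioxidant and metal response genes (30 genes) 0.14, the circadian clock (16 genes) 0.14, chaperones (36 genes) 0.08, hypoxia and glycolysis (35 genes) -0.01 and cholesterol synthesis (23 genes) -0.06. Ctsl and Grn, a lysosomal protease and a lysosomal growth factor, had log2 differences of 0.65 and 0.62 (adjusted p = 0.269 and 0.207). Without intact replicate 3, 4 of the 17 lysosomal genes passed, Ctsl, Grn, Ctsk and Ctsz, beside 1.35% of all genes called higher in that fit. Leaving out that array widens these differences by construction. Fgf7, a growth factor that mesenchymal cells make and epithelia respond to, had signals of 952, 1287 and 598 after 3VO, against 111, 346 and 314 in intact arteries (adjusted p = 0.128). Hmox1, haem oxygenase 1, which degrades haem, had 4193, 13369 and 3942 after 3VO, against 2068, 1888 and 2941 in intact arteries (adjusted p = 0.396). Of 52 genes of the mitochondrial respiratory chain, 42 had a negative difference and 10 were lower on every 3VO array than on any intact array, beside 6.46% of all genes (669 of 10360). The differences were small, with a median of -0.14, and the same median of -0.13 was seen for sham minus intact.

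**Figure D4:**
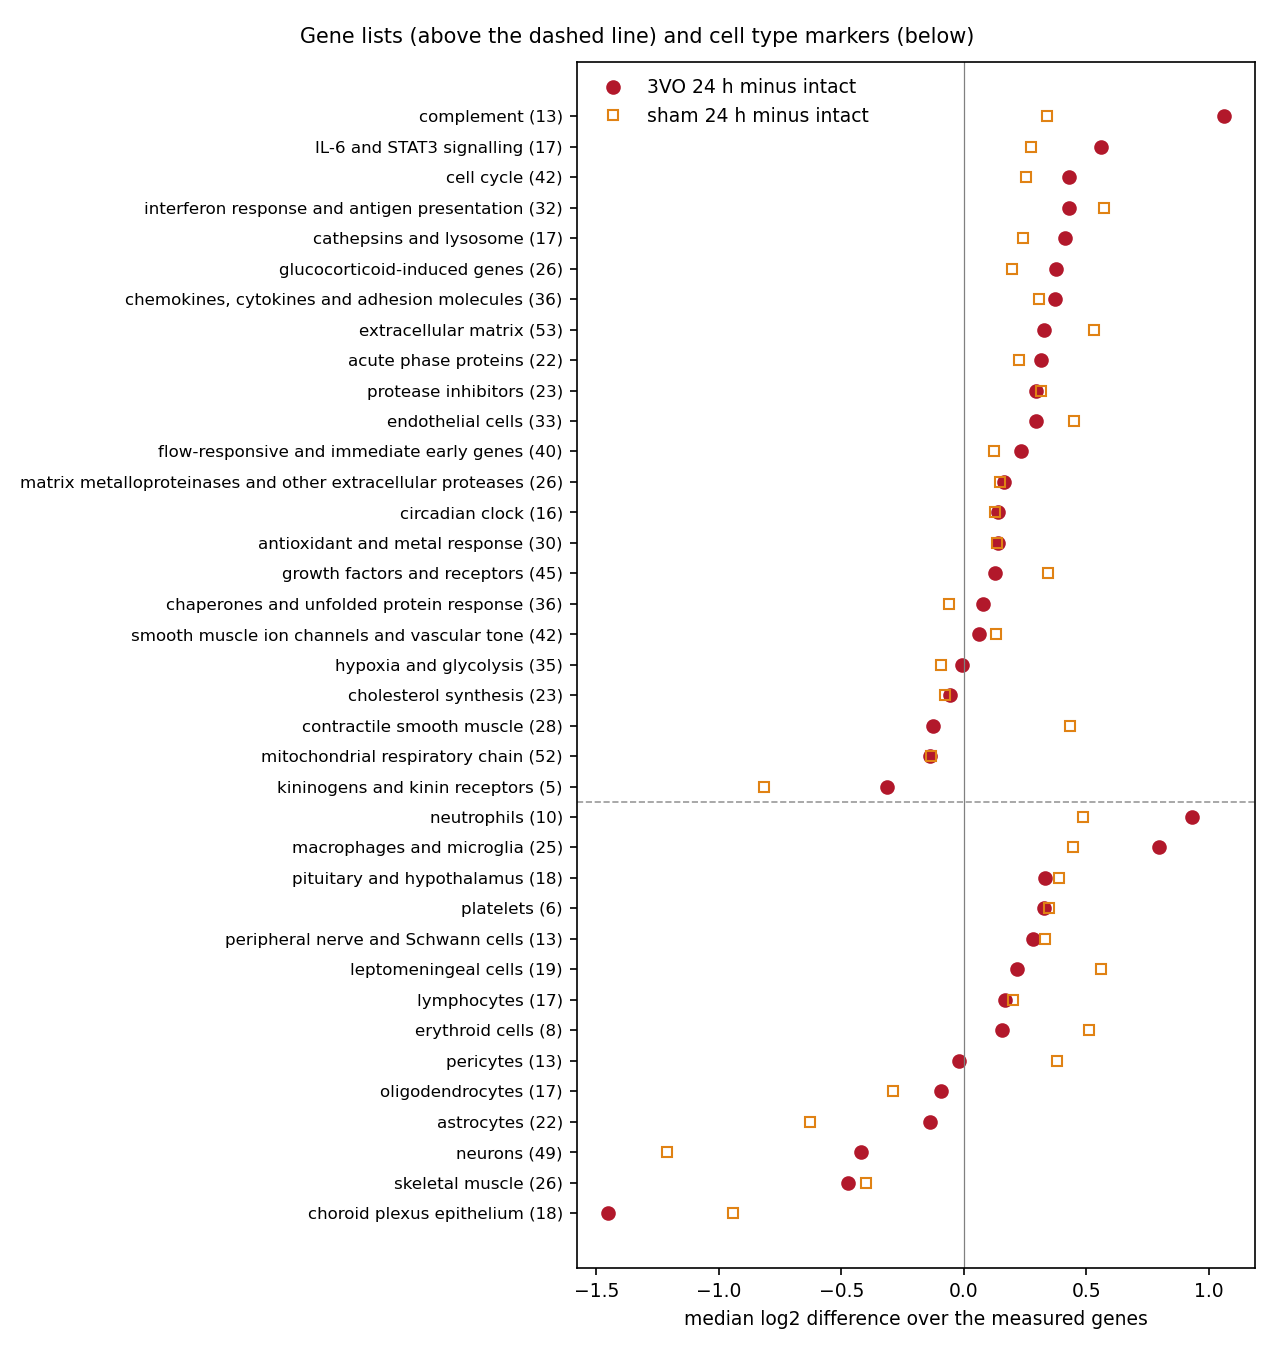
Median log2 difference over the measured genes of each list, for 3VO at 24 h minus intact (filled circles) and sham at 24 h minus intact (open squares), with the number of genes in brackets. Complement, neutrophil and macrophage lists lie farthest to the right for 3VO, and choroid plexus, skeletal muscle and neuron markers lie farthest to the left.

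A single probe set was lower after 3VO. Ythdf2, a reader of N6-methyladenosine that shortens the life of marked RNA, had signals of 1551, 2009 and 1651 after 3VO, 3664, 1651 and 2341 after sham surgery and 14207, 6188 and 8865 in intact arteries. Both operated groups were below every intact array, and the log2 difference was -2.40 ± 0.44 SE (adjusted p = 0.0433 in limma). The call was lost without any 3VO array, sham replicate 3, intact replicate 1 or intact replicate 2 (adjusted p = 0.0568 to 0.165). A second Ythdf2 probe set had a log2 difference of -0.75 and did not pass (adjusted p = 0.146). No other lower probe set passed. Akr1b7, an aldo-keto reductase, had the next smallest p, with signals of 23.0, 21.0 and 27.0 after 3VO, against 458, 563 and 488 in intact arteries, all near the bottom of the scale (adjusted p = 0.0906). It was named after its values were seen. Rrad, a small GTPase that inhibits calcium channels, had signals of 128, 621 and 651 after 3VO, against 2167, 1238 and 4252 in intact arteries. Fam98c had 2381, 610 and 556 after 3VO, against 3300, 3759 and 3763 in intact arteries (adjusted p = 0.108). Gnb1, a G protein beta subunit, had 3 probe sets that disagreed, with log2 differences of -1.35, -0.08 and 0.51.

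No marker of neurons, astrocytes or oligodendrocytes passed (0.212% of all genes did), and the intact arrays were spread widely. Of 49 neuron markers, 39 had a negative difference with a median of -0.42, and 2 were lower on every 3VO array than on any intact array, beside 6.46% of all genes. Reln, the glycoprotein reelin, had signals of 6772, 3547 and 5332 after 3VO, against 29690, 20119 and 7435 in intact arteries (adjusted p = 0.153), and it passed without intact replicate 3, one of 27 genes called lower in that fit (0.261%). Of 18 choroid plexus markers, 16 had a negative difference with a median of -1.45, which was -2.41 without intact replicate 1 and -0.37 without intact replicate 2. Astrocyte and oligodendrocyte medians were -0.14 and -0.09 and changed sign under other settings, with ranges of -0.269 to 0.041 and -0.348 to 0.252. Gfap and Mbp overlapped between the groups. Markers of skeletal muscle had a median of -0.47 over 26 genes, and pericyte markers one of -0.02 over 13. Leptomeningeal cells (19 genes, median 0.22), pituitary and hypothalamus (18 genes, 0.33) and peripheral nerve (13 genes, 0.28) had positive medians and no call. With the mean of the neuron markers as a covariate, 17 of the 29 probe sets still passed and no further ones did. With the choroid plexus mean added as well, an alternative chosen after the data were seen, 8 passed, all of them among the 29.

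The remaining calls were of mixed function. Slc39a1, a zinc importer, had signals of 22554, 22607 and 16760 after 3VO, 13013, 14440 and 12831 after sham surgery and 6805, 7320 and 10029 in intact arteries. The 3 groups did not overlap, and the fold of 3VO over intact was 2.57 (adjusted p = 0.0119 in limma). The call was lost without 3VO replicate 1 (0.0632), 3VO replicate 2 (0.108), intact replicate 1 (0.0628) or intact replicate 2 (0.0568). Tspo, a protein of the outer mitochondrial membrane that is raised in activated microglia, rose 2.18-fold (adjusted p = 0.0483). Crispld2, a secreted protein, rose 1.85-fold (adjusted p = 0.0453). A brighter Crispld2 probe set had a log2 difference of 0.89, overlapped between the groups and did not pass (adjusted p = 0.244). Cyp4v3, a cytochrome P450 of fatty acid oxidation, rose 1.77-fold (adjusted p = 0.0433). Sat1, which acetylates polyamines, had signals of 23395, 24489 and 25959 after 3VO, against 15554, 15341 and 17458 in intact arteries, a fold of 1.53 with little spread (adjusted p = 0.0302). The calls of Tspo, Cyp4v3 and Sat1 held in 8, 8 and 10 of 21 alternative settings, and that of Crispld2 in 8 of 20. Of the probe sets without a gene name, 1388202_at had signals of 16556, 23864 and 21017 after 3VO, 15116, 20029 and 13254 after sham surgery and 1933, 2877 and 5033 in intact arteries. The other, 1369653_at, likewise had operated groups at one level, with means of 1757 after 3VO, 1747 after sham surgery and 373 in intact arteries. Its call held in 4 of 20 alternative settings, and that of 1388202_at in 13 of 20. Just outside the threshold lay 1377092_at, also unnamed (adjusted p = 0.0504), and a second Tpm3 probe set (adjusted p = 0.0541).

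**Figure D5:**
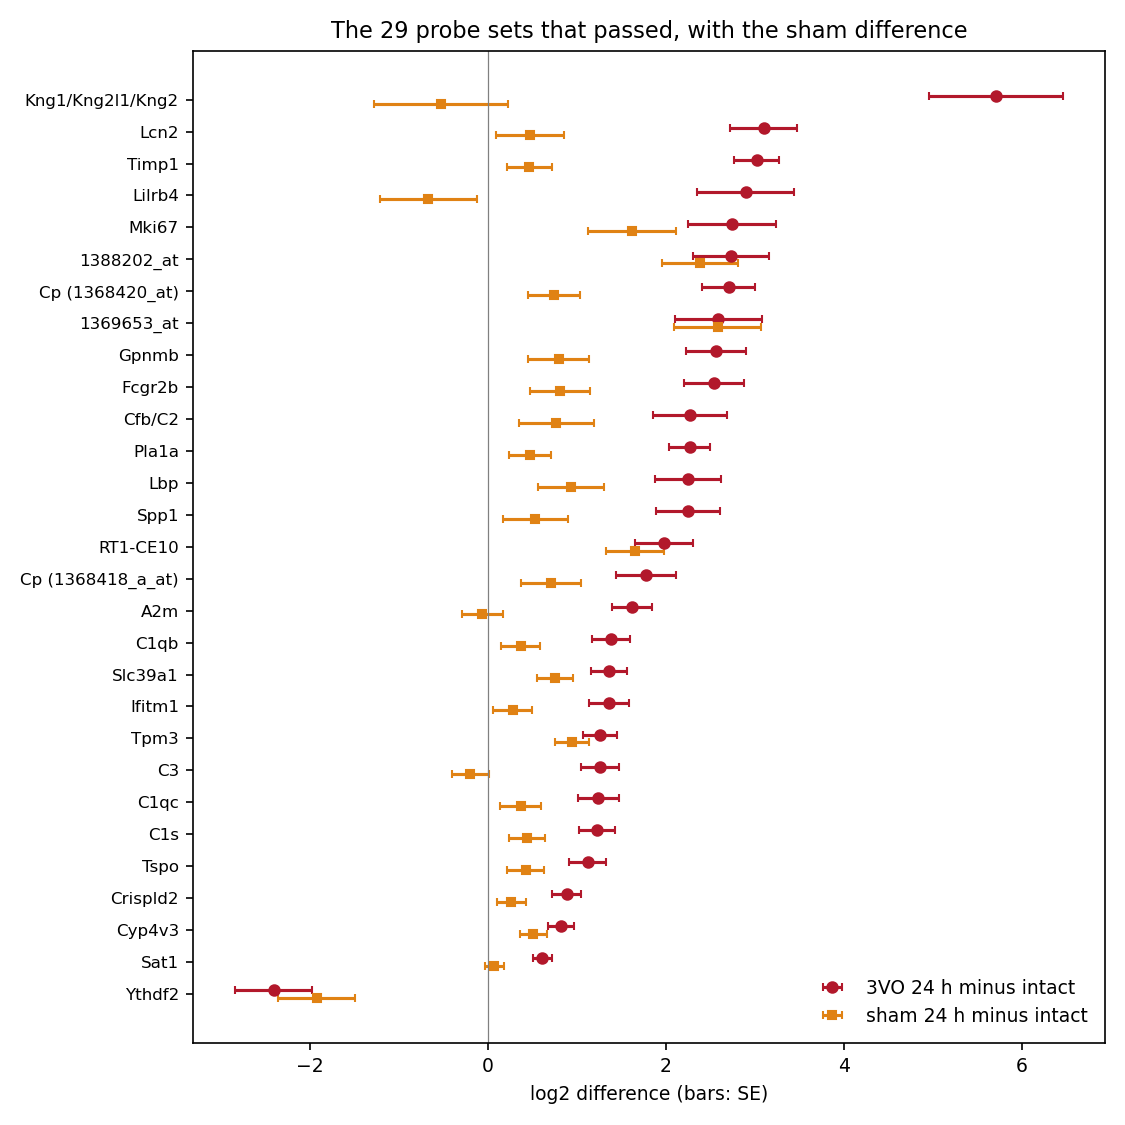
Log2 difference with its SE for the 29 probe sets that passed, for 3VO at 24 h minus intact (red circles) and sham at 24 h minus intact (orange squares). For 24 of the 28 higher probe sets the sham difference is positive and smaller than that of 3VO, and for 1388202_at, 1369653_at and RT1-CE10 both are of similar size.

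Sham surgery at 24 h gave no call against intact arteries, 0 of 15737 (0%) in limma, with 2364 probe sets at an unadjusted p under 0.05 and a smallest adjusted p of 0.116. The count was 2, both lower, in a fit of the 6 arrays alone, and 818 (427 higher, 391 lower) without intact replicate 3. For the 28 probe sets higher after 3VO, the sham mean lay between the 3VO and intact means in 24, and the log2 difference of sham minus intact was over 1 in 4, those of Mki67, RT1-CE10 and the 2 unnamed probe sets. Both comparisons use the same intact arrays. The test of 3VO against sham called 8 probe sets, all higher (0.0508% of those tested), with 1097 at an unadjusted p under 0.05. These were Timp1, Lcn2, Pla1a, A2m, C3, Lilrb4, Cp (1368420_at) and the kininogens, all of which were also called against intact. For these 8 the difference between 3VO and sham was 2.55 for Timp1, 2.63 for Lcn2, 1.79 for Pla1a, 1.68 for A2m, 1.46 for C3, 3.57 for Lilrb4, 1.96 for Cp and 6.23 for the kininogens on the log2 scale (adjusted p = 0.00069 to 0.0191). The count of 8 was 1 without 3VO replicate 2, 5, 2 and 2 without sham replicates 1, 2 and 3, and 13 without intact replicate 1. For the other 20 higher probe sets a difference between 3VO and sham did not pass, which does not show that they are alike.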

How the data were processed

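Arrays of the Affymetrix rat 230A type were scanned and summarised per probe set by the authors with the GCOS software, per the labels and the submitters' processing notes, and the deposited values are intensity signals on a linear scale. The series' design text states a scaling target of 500, whereas the 2% trimmed mean of the deposited values was 5000 on every array. No source used here states the version of that software.

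Of 15923 probe sets, 57 controls were left out, and 15737 with a signal of at least 100 on 3 or more arrays were tested. Values were taken as log2(signal + 16), so that fold changes of dim probe sets are understated. The group means of all 5 groups (15 arrays, 3 a group) were fitted with limma 3.58.1 in R 4.3.3, with an intensity trend in the variance, and p-values are two-sided and Benjamini-Hochberg adjusted over all probe sets. An exact permutation test of 3 arrays against 3 cannot go below 0.1 and was not used. The fit was run on simulated data with independent normal noise of the same spread in every group. Those data held no differences in tissue content between arrays, so the run does not cover the unlike intact arrays. Symbols came from the platform annotation updated through RefSeq (12783 probe sets with 1 gene, 312 with several, 2771 with none named here). Each gene in a list was taken at its brightest probe set.

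The genes named are the calls with the largest differences, the members of gene and marker lists with the smallest p-values, and a set of tissue and pathway genes. The other calls were named after their values were seen. The members and lists were chosen with earlier results of these data known. The alternatives tried are the pseudocount, the signal filter, the normalization, the variance model, array weights, marker levels as covariates and each array left out.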

Additional observations from a re-analysis of the deposited data

How the results depend on the processing

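The count for 3VO against intact (29) was 26 to 29 with other pseudocounts and signal filters and 27 with quantile normalization. It was 15 with median centring, 8 with no variance trend, 39 with array weights, 3 with the 6 arrays alone, 17 with the neuron mean as a covariate and 8 with the neuron and choroid plexus means, the last chosen after seeing the data. It ranged from 7 to 227 when 1 array was left out. The count for sham against intact was 2 with the 6 arrays alone, 0 to 818 with 1 array left out and 0 in the other settings. The count for 3VO against sham (8) was 2 with no variance trend, 25 with array weights, 20 with the 6 arrays alone, 17 with the neuron covariate, 23 with both covariates and 1 to 13 with 1 array left out. The cause of these shifts was not tested.

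Of the named genes' values under alternatives, 3532 kept their direction and side of the threshold, 36 newly passed, 134 no longer passed and 16 changed sign. The log2 difference changed sign for Gfap with quantile normalization (-0.028). With both covariates it did so for Ace (0.572), Aspa (-0.008), Car2 (0.094), Gfap (-0.048), Mmp2 (0.101), Per1 (-0.302) and S100a8 (-0.141). With 1 array left out it ranged from -0.61 to 0.007 for Egr1, -0.077 to 0.179 for Gfap, -0.071 to 1.576 for Gp5, -0.328 to 0.155 for Mbp, -0.065 to 0.288 for Mmp9, -0.038 to 0.586 for S100a8 and -0.303 to 0.119 for Tagln. None of these genes passed in the fit of all 15 arrays. The median of the neuron list was 0.041 with its own mean as a covariate, and that of the choroid plexus list 0.049 with both means, which take up each list's difference by construction. In the other alternatives run both medians stayed negative. The medians of kininogens, contractile smooth muscle, vascular tone, hypoxia, chaperones, clock, cholesterol synthesis, platelets, erythroid cells, pericytes, leptomeningeal cells, astrocytes and oligodendrocytes, most of them near 0, changed sign or were 0 in at least 1 alternative. No paired analysis was possible because the labels give no replicate number that the groups share.

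With 3 arrays a group, the number of arrays limits the precision, and signals under about 100 carry little information on direction.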
